A study of Mus musculus with 4 samples.

Results

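Glutathione S-transferases join the tripeptide glutathione to electrophilic compounds, and the transcripts of 10 of them were followed here in 3T3-L1 cells treated with risperidone. The genes, Gstp1, Gstm1, Gstm2, Gsta4, Gsto1, Gstz1, Gstt2, Gstt3, Mgst1 and Mgst3, were taken by symbol from the 16051 genes of the deposited table, and all 10 were found. 3T3-L1 is a mouse fibroblast line of NIH SWISS origin that can be turned into fat-storing cells in culture. All groups were differentiated with isobutyl-methylxanthine, dexamethasone and insulin and then received either DMSO or 100 μM risperidone, an atypical antipsychotic, for 48 h. Each treatment was sequenced as 2 libraries, each from pooled RNA of 3 cultures, and pooling hides how much single cultures vary. In the labels the controls are untreated, the tissue is embryonic and the RNA is from retina, whereas the study's methods describe cultured cells that received DMSO.

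The libraries held between 15883712 and 16374119 estimated counts, and 3 counts, the most that a count of 0 allows, were 0.183 to 0.189 CPM (counts scaled to a common library total), for counting error only. Of 12 adipocyte markers, 6 passed the filter of 1 FPKM and 6 did not. Adipoq, the fat cell hormone adiponectin, had 0 or 1 counts in every library, Cebpa, Cidec, Retn and Lep had 5 or fewer, and Plin1 had 14 or fewer. Pparg, the regulator of fat cell formation, was present in both treatments (12.0 and 12.6 FPKM), as was the fatty acid transporter Cd36 (1.17 and 1.35 FPKM), and neither was called. Of the 6 that passed, 3 were lower and 1 was higher with risperidone, where 64.3% of all genes tested were called: Fabp4, a lipid carrier, fell from 149 to 65.3 FPKM (log2 fold change -1.09, adjusted p = 1.64e-05), the lipase Lipe from 7.55 to 3.21 FPKM (-1.12, adjusted p = 1.35e-05) and the lipase Lpl from 242 to 191 FPKM (-0.24, adjusted p = 0.00154), while the lipase Pnpla2 went from 56.6 to 62.1 FPKM (0.23, adjusted p = 0.00164, and -0.0079 on the TPM scale, or 0.22 relative to the median of all genes there). The 12 markers summed to 1168 and 1257 CPM with DMSO and 975 and 976 CPM with risperidone, and their part in the transferase values was not tested. Lipe, Pparg, Cd36 and the markers near 0 are named after their values were seen. The 7 retina markers found in the table summed to 4.94 to 7.81 CPM. A list of 20 kidney markers summed to 5.36 to 7.94 CPM in 3 libraries and to 306 in risperidone replicate 2, where 19 of the 20 had more than 3 counts, so results that rest on that library are given with and without it.

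The soluble transferases are dimeric enzymes of the cytosol, sorted into classes named pi, mu, alpha, theta, omega and zeta, and the microsomal ones, encoded by the Mgst genes, are unrelated proteins that sit in membranes. Both kinds make foreign chemicals and oxidized lipids more soluble, after which the conjugates are pumped out of the cell and trimmed to mercapturates. In fat tissue they are known for clearing the reactive aldehydes that form when stored lipids are oxidized. Many of these genes answer to NRF2, a transcription factor that binds the antioxidant response element.

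Paralogs of the pi and mu classes are similar enough to share sequencing reads, and their coding sequences are shown for that reason. The first 90 coding bases are printed 5′ to 3′ from the GENCODE M21 transcripts (GRCm38), and capitals in the second line of each pair mark bases that differ from the first line.
Gstp1: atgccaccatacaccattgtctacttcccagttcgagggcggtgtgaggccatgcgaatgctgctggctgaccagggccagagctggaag
Gstp2: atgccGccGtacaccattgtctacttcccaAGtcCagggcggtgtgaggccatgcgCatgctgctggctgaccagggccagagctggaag
Gstm1: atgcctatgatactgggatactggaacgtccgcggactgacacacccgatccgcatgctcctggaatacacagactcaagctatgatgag
Gstm2: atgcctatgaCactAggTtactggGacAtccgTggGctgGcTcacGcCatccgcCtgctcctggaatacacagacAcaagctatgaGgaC
In these stretches Gstp2 differed from Gstp1 at 6 positions and Gstm2 from Gstm1 at 15. Over the whole coding sequence, Gstp1 and Gstp2 were 98.1% identical, and 71.1% of the windows of 50 bases in Gstp1 also occurred in Gstp2. For Gstm1, 21.5% of the windows were shared with Gstm3 or Gstm2, and for Gstm2 1.81% were shared with Gstm1. The other 7 genes shared 0 windows with any of the transferases compared. The deposited counts of Gstp1 were fractional (6747.49, 6595.21, 8855.67 and 8791.56), so reads were divided between genes there, and its values carry that uncertainty. Those of Gstz1 were fractional with DMSO (328.1 and 340.08) although it shared 0 windows, while those of Gstm1 and Gstm2 were whole.

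Transcript levels spanned about 3 orders of magnitude on the length-adjusted FPKM scale. With DMSO, Gstp1 was highest (678 ± 1.97 FPKM, SD, n = 2 libraries), followed by Mgst1 (464 ± 15.7), Gstm2 (219 ± 2.77), Gstm1 (124 ± 5.26), Mgst3 (61.4 ± 3.07) and Gsto1 (59.9 ± 3.22). Mgst3 and Gsto1 were closer together than their libraries were. Gsta4 (17.5 ± 0.0778 FPKM), Gstz1 (13.6 ± 0.651 FPKM) and Gstt3 (7.67 ± 0.509 FPKM) formed a lower tier, and Gstt2 lay at the bottom with 0.590 ± 0.0424 FPKM. After risperidone, Mgst1 (228 ± 5.44 FPKM) stood next to Gstm2 (224 ± 6.27 FPKM), a gap smaller than the spread of either gene, and Mgst3 (87.1 ± 4.01 FPKM) moved clear of Gsto1 (67.4 ± 0.0283 FPKM).

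**Figure D1:**
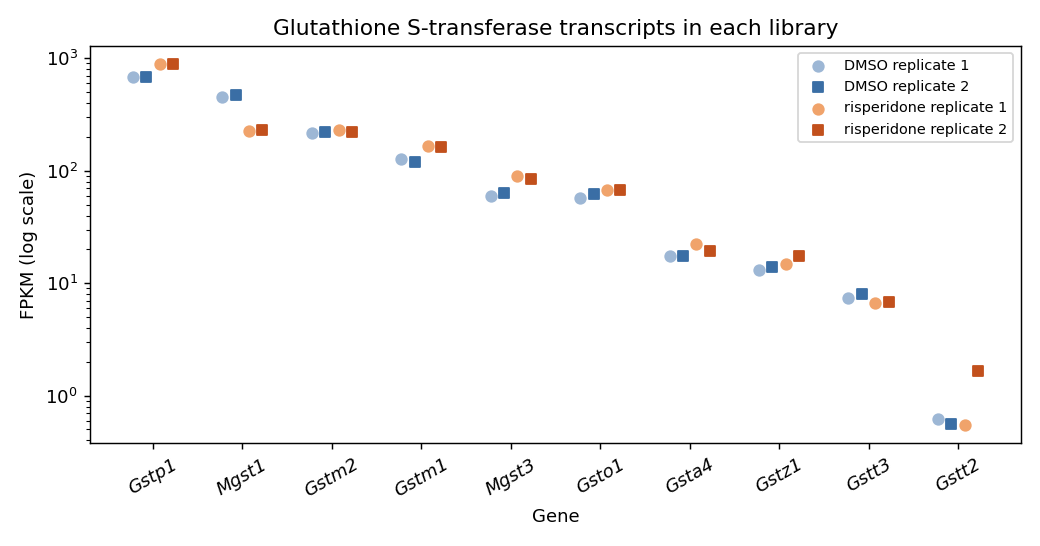
FPKM of each gene on a log scale (vertical axis) by gene, ordered by the DMSO mean, with 1 point per library (blue, DMSO, and orange, risperidone; circles, replicate 1, and squares, replicate 2). Mgst1 is the abundant gene whose risperidone points lie below its DMSO points, and Gstt2 has 1 high point, risperidone replicate 2 at 1.64 FPKM.

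Risperidone libraries held more transcript of most soluble transferases and of Mgst3, and 0.526 times as much of Mgst1. Of the 9 genes whose mean level reached 1 FPKM, 7 were higher (Gstp1, Gstm1, Gstm2, Gsta4, Gsto1, Gstz1 and Mgst3), 1 was lower (Mgst1) and Gstt3 was not called, at an adjusted p under 0.05 from edgeR's quasi-likelihood test over all 10243 genes tested. In the same test 64.3% of all genes were called, 32.1% higher and 32.2% lower, so a call by itself was common. The median log2 fold change (risperidone over DMSO) was 0.33 for the 9 genes and 0.00 for all genes tested. The genes were chosen with earlier results of these data known, so these counts are descriptions and the list itself was not tested. In FPKM, 6 of the 9 were higher and 2 lower with no overlap between treatments, against 32.4% and 49.8% of all genes tested, or 82.2% in either direction. Leaving out DMSO replicate 1 reduced the 7 higher genes to 3 (Gstp1, Gstm1 and Mgst3), while the log2 fold changes of the other 4 were 0.12 (Gstm2), 0.36 (Gsta4), 0.22 (Gsto1) and 0.29 (Gstz1), beside 0.13, 0.35, 0.27 and 0.33 with all libraries. In each such fit 1 treatment has a single library, which is assumed to vary like the other treatment's. Leaving out risperidone replicate 2 reduced them to 6, with Mgst1 lower in both fits.

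Scale and gene length moved with these values. Short genes tended to be higher: the 2561 genes with effective lengths up to 1670 bases had a median log2 fold change of 0.112, with 38.0% called higher and 20.6% lower, and 8 of the 9 tested transferases were among them. With offsets that remove the trend with length, Gsta4 (0.21, adjusted p = 0.101) and Gstm2 (0.01, adjusted p = 0.775) were no longer called, and the log2 fold change of Gstp1 went from 0.50 to 0.29 and that of Mgst3 from 0.61 to 0.36. On the TPM scale the median of all genes was -0.22, and of the genes called there 22.5% were higher. That share of called genes was 49.9% in the TMM-scaled test and 37.9% with library size as the only scaling. On the TPM scale limma called 3 of the transferases higher (Gstp1, Gstm1 and Mgst3) and 2 lower (Mgst1 and Gstt3). Relative to the TPM median the transferases ran from -0.95 (Mgst1) to 0.58 (Mgst3), and Gstm2 stood at 0.11. The part of length in these results was not tested beyond the offsets.

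**Figure D2:**
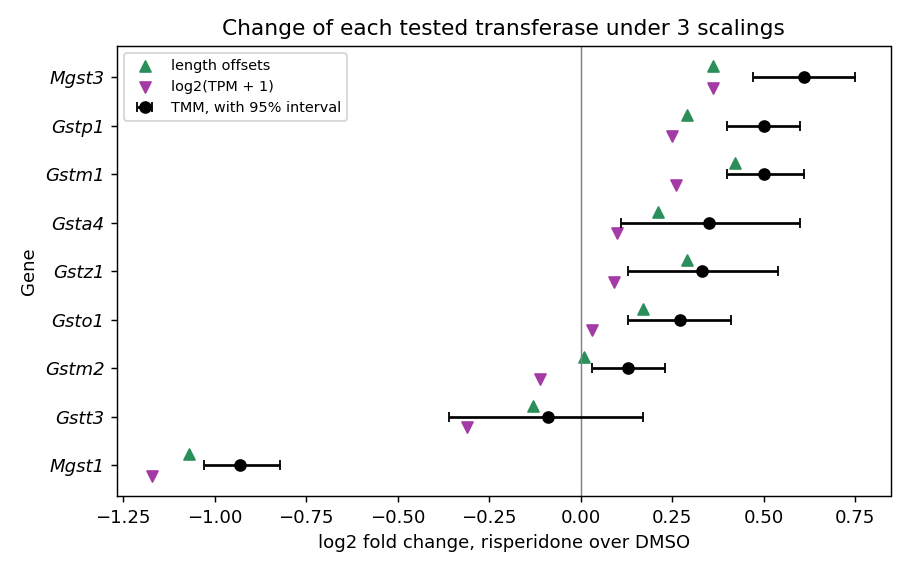
Log2 fold change of each tested transferase, risperidone over DMSO (horizontal axis), by gene (vertical axis), with the 95% interval from edgeR's fit after TMM scaling (black) and the values with length offsets (green) and from limma on log2(TPM + 1) (purple). Mgst1 lies far below 0 under each scaling (-0.93, -1.07 and -1.17), while Gstm2 lies at 0.13, 0.01 and -0.11.

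Gstp1, of the pi class, was the most abundant transferase and rose. It lies at chr19:4035411-4037912 (GRCm38.p6, as are all positions). Its FPKM values were 677 and 680 with DMSO and 891 and 891 with risperidone, with almost no spread within a treatment. The log2 fold change was 0.50 with a standard error of 0.0461 (adjusted p = 4.62e-06), a 1.41-fold higher level. Leaving out any 1 library left it between 0.49 and 0.50. Its near-identical neighbour Gstp2 had 23 and 31 counts with DMSO and 31 and 39 with risperidone, with a log2 fold change of 0.47 (adjusted p = 0.180).

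The mu class genes Gstm1 and Gstm2 lie close together, at chr3:108012250-108017973 and chr3:107981702-107986420. Gstm1 rose from 128 and 120 FPKM with DMSO to 165 and 164 FPKM with risperidone. Its log2 fold change was 0.50 (standard error 0.0485, adjusted p = 6.15e-06), and it was called in all 15 alternative fits. Gstm2, for which the treatments overlapped, had 217 and 221 FPKM with DMSO and 229 and 220 FPKM with risperidone. The higher risperidone value came from replicate 1, and replicate 2 lay between the DMSO libraries. The log2 fold change of Gstm2 was 0.13 with a 95% interval from 0.03 to 0.23 (adjusted p = 0.0266). It was called in 3 of the 15 alternatives and lost its call without DMSO replicate 1 (0.12, adjusted p = 0.165), DMSO replicate 2 (0.14, adjusted p = 0.109) or risperidone replicate 1 (0.10, adjusted p = 0.0881), and with the replicate number as a block (0.13, adjusted p = 0.0557).

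Gsta4, at chr9:78191966-78209349, encodes the alpha class enzyme that conjugates hydroxynonenal, an aldehyde released when membrane and stored lipids are oxidized. It had 17.6 and 17.5 FPKM with DMSO and 22.4 and 19.3 FPKM with risperidone. Both risperidone libraries were higher, but they differed from each other by more than replicate 2 differed from the controls. The log2 fold change was 0.35 (standard error 0.111, adjusted p = 0.0172), and the call was lost without DMSO replicate 1 (0.36, adjusted p = 0.0800), DMSO replicate 2 (0.35, adjusted p = 0.0978) or risperidone replicate 1 (0.24, adjusted p = 0.0763).

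Gsto1, at chr19:47854973-47864790, encodes the omega class enzyme that reduces dehydroascorbate and removes glutathione from proteins. Its levels were 57.6 and 62.1 FPKM with DMSO and 67.4 and 67.4 FPKM with risperidone, with no overlap. The log2 fold change was 0.27 (standard error 0.0638, adjusted p = 0.00323), or 0.22 without DMSO replicate 1 (adjusted p = 0.0573). Gstz1, at chr12:87147161-87164723, encodes the zeta class maleylacetoacetate isomerase of tyrosine breakdown. It had 13.1 and 14.1 FPKM with DMSO and 14.8 and 17.4 FPKM with risperidone, and the highest value was that of risperidone replicate 2. Its log2 fold change was 0.33 (standard error 0.0932, adjusted p = 0.00874). Without risperidone replicate 2 that change was 0.21 (adjusted p = 0.0812), and without DMSO replicate 1 it was 0.29 (adjusted p = 0.0626). Risperidone replicate 2 was also the library in which the kidney markers summed to 306 CPM, and their part in the value of Gstz1 was not tested.

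The theta class genes Gstt3 (chr10:75774117-75781422) and Gstt2 (chr10:75831842-75837419) were the least abundant. Gstt3 had 7.31 and 8.03 FPKM with DMSO and 6.71 and 6.74 FPKM with risperidone. On that scale the risperidone libraries lay lower without overlap, as they did for 49.8% of all genes tested. After TMM scaling the log2 fold change was -0.09 with a 95% interval from -0.36 to 0.17 (adjusted p = 0.520). On the TPM scale Gstt3 was called lower by limma (-0.31, adjusted p = 0.0123).

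Gstt2 was the only transferase of the 10 raised in risperidone replicate 2 alone. It had 12 and 10 counts with DMSO, 9 in risperidone replicate 1 and 34 in risperidone replicate 2, or 0.620, 0.560, 0.550 and 1.64 FPKM. The level in risperidone replicate 2 was 2.65 times the highest of the other libraries. A gene was taken as raised in 1 library alone when its FPKM was at least 2-fold the highest of the others with at least 10 counts, and 3.53% of genes met this in risperidone replicate 2, against 0.206% to 0.282% in each of the other libraries. With a mean under 1 FPKM, Gstt2 was not in the main test. With no filter its log2 fold change was 1.05 (standard error 0.683, adjusted p = 0.302). Without risperidone replicate 2, the remaining risperidone value of 0.550 FPKM lay below both DMSO values. For the other 9 genes, risperidone replicate 2 stood between 0.487 and 1.18 times the highest other library, the 1.18 being that of Gstz1. The kidney markers, among them Kap with 1048 counts, Slc34a1 with 681 and Slc27a2 with 459, were raised in the same library, and their part in the Gstt2 value was not tested.

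**Figure D3:**
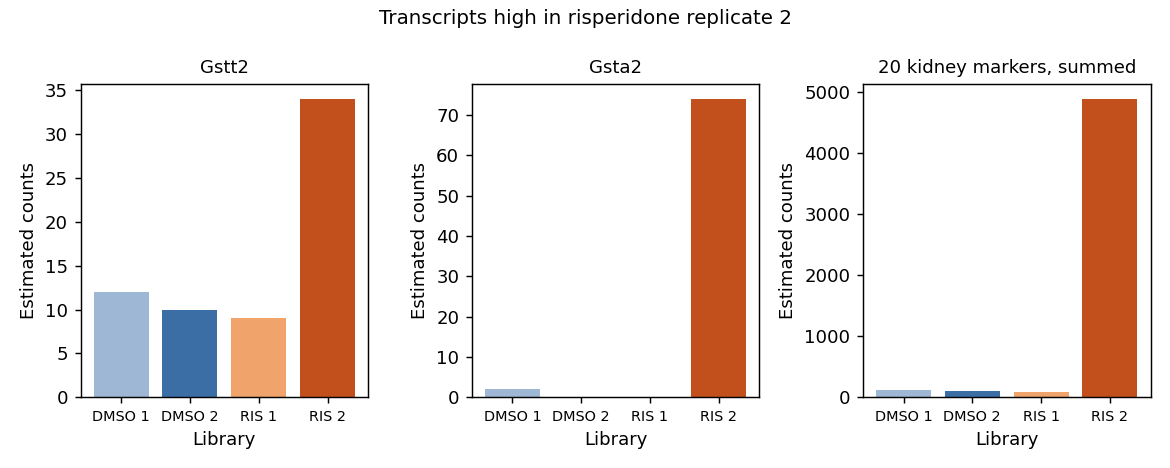
Estimated counts (vertical axes, from 0) in each library (DMSO 1 and 2, RIS 1 and 2 for risperidone replicates 1 and 2) of Gstt2, of Gsta2 and of 20 kidney markers summed. Risperidone replicate 2 is the high bar in each panel, with 34, 74 and 4894 counts.

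The microsomal genes moved in opposite directions. Mgst1, at chr6:138140527-138156755, encodes a trimeric enzyme of the endoplasmic reticulum and outer mitochondrial membrane that also reduces lipid hydroperoxides. It fell from 453 and 475 FPKM with DMSO to 224 and 231 FPKM with risperidone. The treatments were far apart compared with the spread within each, and the log2 fold change was -0.93 (standard error 0.0487, 95% interval from -1.03 to -0.82, adjusted p = 1.02e-07), a level 0.526 times that with DMSO. Leaving out any 1 library gave -0.96 to -0.89, and the call held in all 15 alternatives. Mgst3, at chr1:167371966-167393841, encodes a related membrane enzyme of lipid peroxide and leukotriene metabolism. Its values were 59.3 and 63.6 FPKM with DMSO and 89.96 and 84.29 FPKM with risperidone. The log2 fold change was 0.61 (standard error 0.0633, adjusted p = 1.06e-05), the largest increase among the 9 tested genes after TMM scaling, while with length offsets that of Gstm1 (0.42) exceeded that of Mgst3 (0.36). The coding sequences of Mgst1 and Mgst3 were 43.4% identical, with 0 shared windows. In bulk RNA, fewer cells with a transcript and less of it per cell cannot be told apart.

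The pool of transferase transcripts held relatively more Gstp1 and less Mgst1 with risperidone. Summed over the 10 genes, TPM was 3378 and 3412 with DMSO and 3131 and 3240 with risperidone. In CPM the same genes summed to 1262 and 1290 with DMSO and 1295 and 1303 with risperidone. The direction of the total thus depended on the scale. The share of Gstp1 in that sum was 41.5% and 40.9% with DMSO and 52.1% and 52.3% with risperidone. Mgst1 made up 27.8% and 28.6% with DMSO and 13.1% and 13.6% with risperidone. The share of Gstm2 stayed between 12.9% and 13.4%, and that of Gstm1 was 7.84% and 7.25% against 9.67% and 9.60%. The 8 soluble genes summed to 2317 and 2307 TPM with DMSO and 2557 and 2639 TPM with risperidone, and the microsomal pair to 1061 and 1106 TPM against 574 and 601 TPM. These shares are parts of 1 sum and so depend on each other, and with 2 libraries a treatment no exact test of them can pass 0.05, the smallest two-sided p being 0.333.

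**Figure D4:**
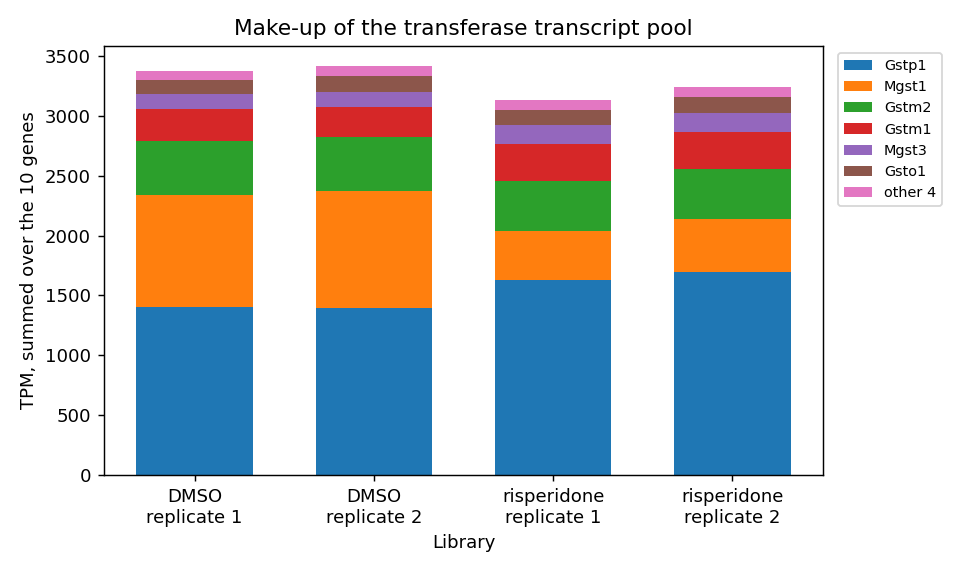
TPM of the 10 transferase genes stacked in each library (vertical axis, from 0), with Gstp1, Mgst1, Gstm2, Gstm1, Mgst3 and Gsto1 apart and the other 4 genes together. The Gstp1 segment is larger and the Mgst1 segment smaller in both risperidone libraries, while the total stays between 3131 and 3412 TPM.

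The 10 genes held 91.5% to 93.4% of the TPM of 27 genes, these 10 and 17 further ones from a chosen list of transferases. The list includes Ptges, Hpgds and Gstcd and need not be complete. Of 18 further transferases looked for, 17 were listed and 11 were tested, of which 4 were called higher and 2 lower (2 and 2 on the TPM scale, 3 and 3 without risperidone replicate 2), beside 32.1% and 32.2% of all genes. Gstm5, another mu class gene, had 51.2 and 55.8 FPKM with DMSO and 91.2 and 80.6 FPKM with risperidone, and rose by more than Mgst3, at 0.79 on the log2 scale (standard error 0.0794, adjusted p = 8.84e-06). Gstcd, a gene with a transferase-type domain, rose (0.84, adjusted p = 0.000221), and so did Ptges, the membrane enzyme that makes prostaglandin E from its precursor (0.23, adjusted p = 0.00136, and -0.01 on the TPM scale, or 0.21 relative to the median of all genes there). Gsta3, an alpha class gene, fell from 47 and 43 counts to 5 and 22, with a log2 fold change of -1.63 (adjusted p = 0.00828). That change was -3.05 without risperidone replicate 2 and -0.93 without risperidone replicate 1, and the call was lost with no filter on low values (adjusted p = 0.0952). Gstm7 fell from 38 and 33 counts to 12 and 17 (-1.19, adjusted p = 0.00667), a call that DESeq2 did not make (adjusted p = 0.0539).

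Gsta2, the fourth transferase called higher, had 2 and 0 counts with DMSO, 0 in risperidone replicate 1 and 74 in risperidone replicate 2. Its call (adjusted p = 0.0173) rested on that library, and without it the adjusted p was 0.490. Gstk1, the kappa class gene, had 46 and 39 counts with DMSO and 22 and 45 with risperidone, and was not called (-0.25, adjusted p = 0.522). Its value was -0.86 (adjusted p = 0.0373) without risperidone replicate 2 and 0.18 without risperidone replicate 1, each resting on 1 risperidone library. Gstt1 (0.60, adjusted p = 0.199), Gsto2 (0.23, adjusted p = 0.559) and Mgst2 (0.23, adjusted p = 0.537), each with 28 or fewer counts in every library, were not called.

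Genes that make, recycle or break down glutathione showed calls both ways. Of 12 listed, 11 were tested, 2 were higher and 4 lower, beside 32.1% and 32.2% of all genes, with a median log2 fold change of -0.03. On the TPM scale 1 was higher and 7 lower, beside 1536 and 5292 of all 10243 genes. The count of 2 higher was 1 without DMSO replicate 1 or risperidone replicate 2 and 3 without DMSO replicate 2. Chac1 and Chac2, which both break glutathione down, went opposite ways, at 0.91 (adjusted p = 0.000298) and -0.85 (adjusted p = 0.000700). Oplah, which returns oxoproline to glutamate, fell (-0.35, adjusted p = 0.00249). Slc7a11, the cystine importer that provides cysteine for glutathione, fell from 2.27 and 2.17 FPKM to 0.50 and 0.69 FPKM (-1.79, adjusted p = 2.44e-06), and Gclc, the catalytic subunit of the rate-limiting ligase, was lower as well (-0.25, adjusted p = 0.0133). The call of Gclc was lost without DMSO replicate 2 (-0.21, adjusted p = 0.0527) or risperidone replicate 1 (-0.15, adjusted p = 0.0509). Gclm, the partner subunit of Gclc, was not called (-0.05, adjusted p = 0.546). Gss, glutathione synthetase, was called higher (0.18, adjusted p = 0.0281). On the TPM scale Gss was at -0.06, or 0.16 relative to the median of all genes there. Slc7a11, Gclc, Gclm and Gss are named after their values were seen.

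Downstream of conjugation, 9 of 19 genes were tested, 4 were higher and 2 lower, beside the same 32.1% and 32.2%, with a median log2 fold change of 0.16. On the TPM scale 3 were higher and 3 lower, beside 1536 and 5292 of all 10243 genes, and without DMSO replicate 1 the 2 lower genes became 1. Abcc1, the pump that exports glutathione conjugates, rose from 35.0 and 32.7 FPKM to 48.9 and 49.8 FPKM (0.63, adjusted p = 1.34e-06). Dpep1, a dipeptidase that cleaves cysteinylglycine, rose (0.78, adjusted p = 9.13e-06), and so did Lap3, a leucine aminopeptidase (0.56, adjusted p = 1.34e-05). The fourth higher gene was Acy3, which removes acetyl groups from mercapturates. It had 12 and 13 counts with DMSO, 9 in risperidone replicate 1 and 111 in risperidone replicate 2. The log2 fold change of Acy3 was 2.35 with all libraries (adjusted p = 0.0266) and -0.38 without risperidone replicate 2, so its call rested on that library. Acy3 was named after its values were seen.

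NRF2 and 18 further genes tied to it were all tested, with 6 higher, 8 lower and a median log2 fold change of -0.08, beside 32.1% higher and 32.2% lower among all genes. Nfe2l2, the gene of NRF2 itself, fell from 74.1 and 74.3 FPKM to 33.95 and 37.15 FPKM. Its log2 fold change was -0.96, with a standard error of 0.0521 and an adjusted p of 1.20e-07. Hmox1, the heme-degrading oxygenase, fell by 1.10 on the log2 scale (adjusted p = 5.78e-08), and Pgd, an NADPH-forming enzyme of the pentose phosphate pathway, fell by 0.49 (adjusted p = 7.38e-06). Omitting DMSO replicate 1, DMSO replicate 2 or risperidone replicate 1 lowered the count of higher genes in this list to 3, and on the TPM scale 2 were higher and 12 lower, where 1536 and 5292 of all 10243 genes were.

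Promoter sequence was read for the most abundant transferases, Gstp1, which rose, and Mgst1, which fell. The 250 bases before the start site are printed 5′ to 3′ on the gene's strand from the RefSeq promoters of GRCm38.p6, for Gstp1 chr19:4037913-4038162 (minus strand) and for the upstream start of Mgst1 chr6:138140277-138140526 (plus strand). Capitals mark an AP-1 site (TGANTCA) in Gstp1 and an antioxidant response element core (TGACNNNGC, here on the opposite strand) in Mgst1.
Gstp1: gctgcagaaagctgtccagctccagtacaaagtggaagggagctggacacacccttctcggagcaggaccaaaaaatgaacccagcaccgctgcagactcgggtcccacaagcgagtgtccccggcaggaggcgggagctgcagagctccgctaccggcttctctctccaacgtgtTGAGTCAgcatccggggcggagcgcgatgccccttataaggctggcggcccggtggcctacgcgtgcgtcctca
Mgst1: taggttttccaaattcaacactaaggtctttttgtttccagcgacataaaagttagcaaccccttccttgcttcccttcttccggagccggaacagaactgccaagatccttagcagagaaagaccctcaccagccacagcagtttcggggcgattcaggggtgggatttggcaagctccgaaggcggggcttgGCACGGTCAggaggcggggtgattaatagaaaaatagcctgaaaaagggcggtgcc
Promoters were listed for 8 of the 10 transferases, 12 in all, and both strands were searched over these 250 bases. The antioxidant response element core was found in 1 of the 12, that of Mgst1, and in 10.2% of all 32851 promoters. The AP-1 site was found in 1 of the 12, that of Gstp1, and in 6.75% of all promoters. The 2 matches lay in different genes, so they did not overlap. Looser forms of the element were not searched. Read with the gc after it, the Gstp1 match (TGAGTCAgc) departs from the element core only in having G for C. A match is a description of the letters in this window, not of a bound site.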

How the data were processed

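Messenger RNA of 3T3-L1 cultures given DMSO or risperidone after differentiation was sequenced on an MGISEQ-2000, with 2 libraries per treatment. The authors removed adaptors, poly-N and low-quality reads and deposited, for each gene, estimated counts (expected counts, not normalized; 90.1% to 90.4% of values above 0 are whole), FPKM computed on their DC.TOM platform, and TPM scaled to 1 sum per library. The submitters' processing notes name Bowtie2, RSEM, DESeq2 and the build GRCm38.p6, and versions and the use of strand in counting are not given in the sources used here.

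Rounded counts were fitted with edgeR 4.0.16 under R 4.3.3 (quasi-likelihood F-test with TMM scaling, two-sided, Benjamini-Hochberg over the 10243 genes whose mean reached 1 FPKM, threshold 0.05). The standard error of a log2 fold change was obtained as its size over the root of the F statistic, and intervals are at 95%. TMM factors were 0.963 to 1.03 and the biological coefficient of variation was 0.0468. Every transferase of the list is named. From other lists, up to 3 called genes with the largest change and a mean of at least 5 FPKM, each further transferase with a mean of at least 1 FPKM, the 3 kidney markers with most counts in risperidone replicate 2 and the 3 most abundant adipocyte markers are named. The genes and lists were chosen with earlier results of these data known. Effective lengths are counts over FPKM. Alternatives used DESeq2 1.42.0 and limma 3.58.1 (on log2 values of the deposited FPKM or TPM plus 1 or 0.1), other scalings and filters, length offsets, a replicate block and each library left out, and the fits were tested on simulated data. The cultures were pooled, so p-values measure the spread between libraries.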

Additional observations from a re-analysis of the deposited data

How the results depend on the processing

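Mgst1, Gstp1, Gstm1 and Mgst3 kept their direction and their call in all 15 alternatives, with log2 fold changes from -1.17 to -0.89, 0.25 to 0.50, 0.26 to 0.55 and 0.36 to 0.66. Gsto1 was called in 13 of the 15 alternatives, Gstz1 in 11, Gsta4 in 8 and Gstm2 in 3, with adjusted p up to 0.659, 0.416, 0.242 and 0.775. With each library left out in turn, 3 to 6 of the transferases were higher. On the TPM scale, which lowers all genes by its own median, 3 were higher and 2 lower, and 1536 genes were higher and 5292 lower. There Gstm2 (-0.11), Ptges (-0.01), Mgst2 (-0.02), Pnpla2 (-0.0079) and Gss (-0.06) reversed. Mgst2 also reversed with length offsets (-0.03), Gstk1 (0.18) and Gsto2 (-0.0099) without risperidone replicate 1, and Gsta2 (-3.14), Slc27a2 (-4.83) and Slc34a1 (-0.31) without risperidone replicate 2. The last 3 rest on 0 to 5 counts in the remaining libraries, so the folds of Gsta2 and Slc27a2, at 0 in risperidone replicate 1, depend on the prior count, and none was called (adjusted p = 0.490, 0.152 and 0.830). With each library left out in turn, the log2 fold changes of these 5 genes ran from -0.86 to 0.18 for Gstk1, -0.0099 to 0.43 for Gsto2, -3.14 to 8.24 for Gsta2, -4.83 to 7.08 for Slc27a2 and -0.31 to 7.47 for Slc34a1. Apart from the shifts built into the scalings and the library left out, the cause was not tested.

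The labels and the study's methods do not say whether replicates of equal number shared a culture. With the replicate number as a block, 6 transferases were higher and 1 lower, and 3292 and 3321 of all genes. The replicate differences of the treatments correlated at -0.105, and the crossed pairing, added after the data were seen, gave 3474 and 3519 calls. DESeq2 called 5 transferases higher and 1 lower, and edgeR without the filter on low values 6 and 1. Gstt2 had 9 to 34 counts, and whether depth or the spread between libraries limits its value was not tested.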

Other observations

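Of the genes counted in the list of NRF2 and its targets, 4 more are named after their values were seen, with values from the same edgeR test. Each kept its direction and call in limma on the TPM scale, where Tkt was close to the threshold (0.14, adjusted p = 0.0487). In edgeR each kept its direction with any 1 library left out. Ephx1, the microsomal epoxide hydrolase that works beside the transferases on epoxides, had 301 and 304 FPKM with DMSO and 213 and 219 FPKM with risperidone, a change of -0.39 on the log2 scale (adjusted p = 3.04e-05). Aox1, an aldehyde oxidase, was at 6.65 and 6.47 FPKM against 2.39 and 3.28 FPKM (-1.13, adjusted p = 1.33e-05). Me1, the cytosolic malic enzyme that forms NADPH, was higher (0.41, adjusted p = 4.90e-05), and so was Tkt, the transketolase of the pentose phosphate pathway (0.38, adjusted p = 3.18e-05), opposite to Pgd of the same pathway.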
